A study of Homo sapiens with 40 samples.

Results

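The SLAM family are receptors of blood cells through which lymphocytes recognise one another. Described here are 7 of them (SLAMF1, SLAMF6, LY9, CD84, SLAMF7, CD244 and its ligand CD48). They are joined by SH2D1A, the gene of the adaptor protein SAP that binds the cytoplasmic tails of several of these receptors. These 8 genes of 62754 listed were chosen by name, as a family in which CD48 rose and CD84 fell when QKI was depleted by a short hairpin RNA (shRNA). The values of that comparison are therefore given below as a description, with no test. The RNA-binding protein QKI, known as quaking, acts in splicing and on the stability of messenger RNA, and the study sequenced RNA of human T-cell acute lymphoblastic leukaemia (T-ALL) lines with and without its depletion.

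The 40 libraries form 10 groups of 4. The T-ALL line Jurkat was electroporated with an siRNA against QKI or with a non-targeting control siRNA. A virus carrying a QKI shRNA or a non-targeting control shRNA was brought into cells that the labels call HPB-ALL. The other 6 groups are the untreated T-ALL lines ALL-SIL, DND-41, HPB-ALL, KARPAS-45, LOUCY and TALL-1. Cells grew in 10% serum, except KARPAS-45, untreated HPB-ALL and both shRNA groups labelled HPB-ALL, which grew in 20%. The labels do not say whether replicates were separate cultures, so the spread behind every p-value is that between libraries and may be technical.

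Most SLAM receptors bind a copy of themselves on the neighbouring cell, whereas CD244 binds CD48, which has no cytoplasmic tail and is held in the membrane by a lipid anchor. Tyrosine motifs in several of the tails recruit SAP, which brings in the kinase FYN and turns the receptor towards activation in T and natural killer (NK) cells. Loss of SAP in humans causes X-linked lymphoproliferative disease. The receptors are used as lineage and maturation markers of blood cells, and several are expressed by myeloid as well as lymphoid cells.

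The 7 receptor genes lie side by side on chromosome 1 within 378 kb (GRCh38, GENCODE 29). In map order they are SLAMF6 (chr1:160485030-160523262, minus strand), CD84 (chr1:160541095-160579516, minus), SLAMF1 (chr1:160608100-160647295, minus), CD48 (chr1:160678746-160711851, minus), SLAMF7 (chr1:160739057-160754821, plus), LY9 (chr1:160796074-160828261, plus) and CD244 (chr1:160830160-160862855, minus). SH2D1A lies apart from them, at chrX:124227868-124373197 on the plus strand. Whether strand was used in the counting is unknown here, and CD48 shares 976 exon bases with AL121985.1 on the opposite strand. That gene had 1 to 10 counts in the knockdown libraries labelled HPB-ALL or their controls, against 886 to 2498 for CD48, and up to 389 in untreated HPB-ALL.

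QKI binds RNA at a short hexamer, searched here as ACTAAC and ACTAAT on the sense strand only of the longest protein-coding GENCODE 29 transcript of each gene. The sites of the 2 genes that moved apart under the shRNA are shown with 10 bases on either side, 5′ to 3′ in the sense of the transcript, with the hexamer in capitals. CD48 held a site in its coding sequence (chr1:160685092-160685117, minus strand) and another in its 3′ UTR (chr1:160684249-160684274, minus). CD84 held 3, all in its 3′ UTR (chr1:160546331-160546356, chr1:160542756-160542781 and chr1:160541279-160541304, minus).
CD48 coding: actacaaacaACTAACctggttttat
CD48 3′ UTR: aataacagaaACTAATtcaatgtacc
CD84 3′ UTR site a: ttacagcataACTAATtatttgtttt
CD84 3′ UTR site b: gaaagtaatgACTAATacattctcta
CD84 3′ UTR site c: ggcaaatgccACTAACcgtattccag
Among transcripts within 20% of the length of CD48, 25.4% held at least 1 such hexamer, and among those near the longer CD84 transcript 79.5% did. SLAMF1 and SLAMF6 held 1 site each and SLAMF7 and SH2D1A 2 each, where 32.8% to 53.2% of transcripts of like length held any. LY9 and CD244 held none in these transcripts. A match is a description of the sequence, not evidence of binding.

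Depth was 44.1 to 135 M (mega) gene counts per library, so that 3 counts, taken as the limit of detection for counting error only, were at most 0.0653 CPM (counts per M of library total). QKI was lower in both knockdowns. In Jurkat it was 148 ± 19.5 CPM (SD, n = 4) with the control and 21.5 ± 4.22 (SD, n = 4) with the QKI siRNA. In the cells labelled HPB-ALL it was 104 ± 2.58 and 55.8 ± 1.42 CPM (SD, n = 4 each). The untreated lines ran from 0 counts in all 4 LOUCY libraries to 162 ± 4.24 CPM in TALL-1.

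The shRNA libraries stood apart from their label. CD3E, part of the T-cell receptor complex, had 2 counts in all over the 4 control shRNA libraries and 3 over the 4 QKI shRNA libraries, against 925 ± 168 CPM (SD, n = 4) in untreated HPB-ALL. Of 12 T-cell markers, 8 had at most 3 counts in every one of these 8 libraries (CD28, CD3D, CD3E, CD3G, CD5, CD7, CD8A, CD8B), and their summed level of 407 to 495 CPM was nearly all CD4. The summed level of 12 myeloid markers was 2980 to 3580 CPM in them and 15.1 to 34.7 CPM in untreated HPB-ALL. ELANE, the neutrophil elastase gene, stood at 1650 and 1710 CPM in the 2 shRNA groups. The label HPB-ALL therefore does not hold for these libraries by their markers, and the words "labelled HPB-ALL" are kept for them.

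The family split differently in each cell type. In 7 of the 10 groups the level per exon length (FPKM, from the CPM) was highest for SH2D1A, at 154 in control Jurkat and 29.1 to 63.1 in the lines other than LOUCY. In LOUCY, CD244 stood above it, at 53.1 against 40.9 FPKM. In the libraries labelled HPB-ALL, CD244 led at 20.1 and 21.2 FPKM while SH2D1A was at the limit of detection. The number of members above 1 CPM in every library ran from 2 in KARPAS-45 (CD48 and SH2D1A) to 6 in LOUCY and in DND-41.

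**Figure D1:**
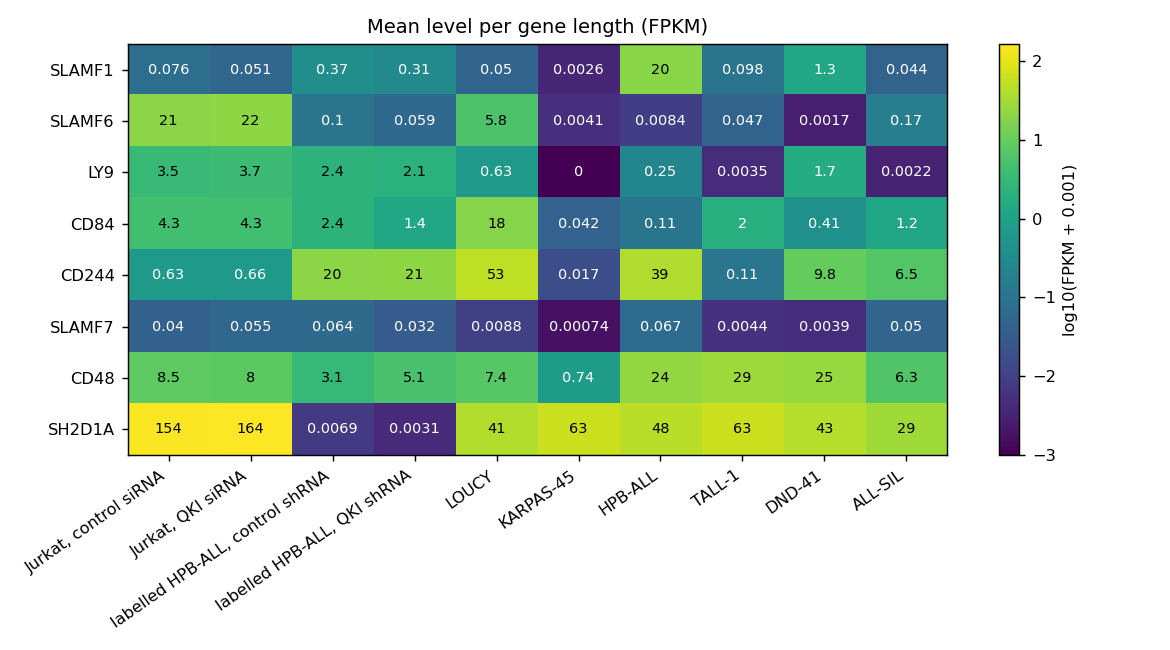
Mean FPKM (CPM per kilobase of exon; n = 4 libraries a group) of each of the 8 genes in the 10 groups, printed in each cell and coloured by log10(FPKM + 0.001). SH2D1A is bright in every group except those labelled HPB-ALL, where CD244 is highest, and KARPAS-45 shows hardly any receptor but CD48.

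The knockdown labelled HPB-ALL chose the genes, so its values are set out first and without a test. CD48, the ligand of CD244, stood at 9.62, 10.4, 9.59 and 11.2 CPM in the control shRNA libraries and at 18.6, 18.5, 12.9 and 17.1 CPM with the QKI shRNA. All 4 QKI shRNA libraries lay above all controls, and the third of them was the closest to the control range. The means were 10.2 ± 0.748 and 16.8 ± 2.66 CPM (SD, n = 4 each), a log2 fold change of 0.72, or 1.65-fold. Leaving out any 1 library gave 0.68 to 0.83.

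CD84, a self-binding receptor of lymphocytes, platelets and myeloid cells, went the other way. It stood at 21.8, 22.4, 23 and 20.7 CPM in the controls and at 12.5, 12.3, 13 and 12.1 CPM with the QKI shRNA. The groups did not overlap and each was tight, at 22 ± 0.952 and 12.5 ± 0.364 CPM (SD, n = 4 each). The log2 fold change was -0.82, and leaving out any 1 library gave -0.84 to -0.80.

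Of the other self-binding receptors, SLAMF6, SLAMF7 and SLAMF1 were scarcer. SLAMF6, a receptor of T, B and NK cells, had 18 to 40 counts per control library and 16 to 24 with the QKI shRNA, or 0.227 to 0.323 against 0.133 to 0.181 CPM, a log2 fold change of -0.79. SLAMF7, best known on NK and plasma cells, had 27 to 38 counts and 12 to 24 counts, or 0.218 to 0.378 against 0.0998 to 0.181 CPM, a log2 fold change of -0.95. SLAMF1, which is also the measles virus receptor, stood at 1.49 to 1.73 and 1.16 to 1.43 CPM, a log2 fold change of -0.26. For these 3 genes every QKI shRNA library lay below every control, although the first 2 were under 1 CPM throughout.

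LY9 and CD244 were abundant but their groups overlapped. LY9, a self-binding receptor with more extracellular domains than the others, stood at 20.4 to 23.6 CPM in the controls and 17.3 to 20.7 CPM with the QKI shRNA, a log2 fold change of -0.16. CD244, the receptor for CD48, stood at 53.8 to 59.3 and 58.6 to 62.7 CPM, a log2 fold change of 0.08. The ligand and its receptor thus had log2 fold changes of 0.72 and 0.08 in the same libraries. SH2D1A was not measurable: its counts were 3, 2, 2 and 2 in the controls and 0, 1, 1 and 3 with the QKI shRNA, and it was the 1 gene of the 8 that did not pass the filter on low counts.

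**Figure D2:**
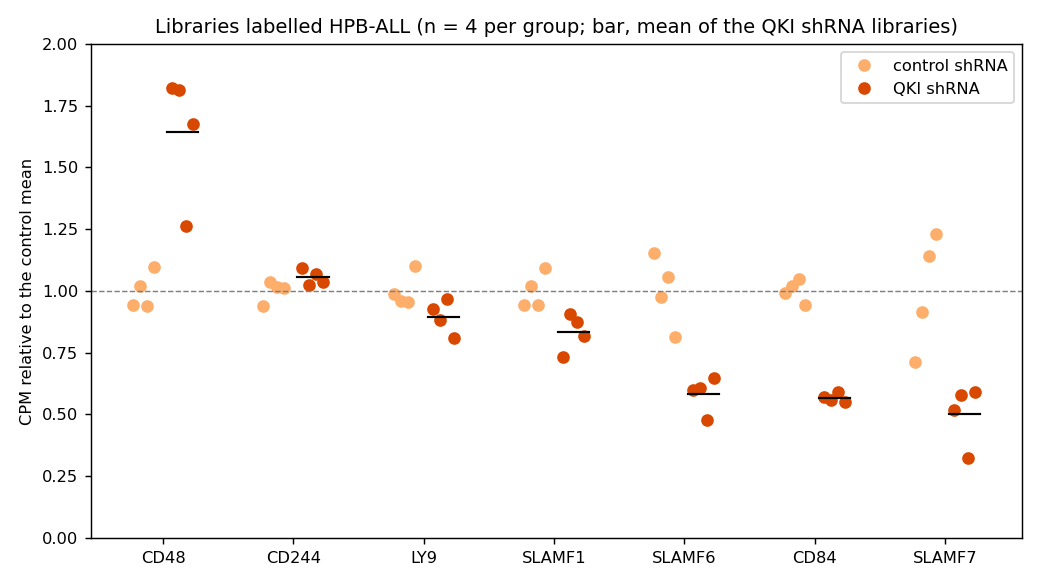
CPM of the 7 receptor genes in the 8 libraries labelled HPB-ALL, each divided by the mean of the 4 control shRNA libraries (vertical axis from 0, 1 = control mean, points are libraries, bars the mean of the 4 QKI shRNA libraries). CD48 lies above the control points and SLAMF1, SLAMF6, CD84 and SLAMF7 below them, while CD244 and LY9 overlap with the controls.

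In all, 1 member had every knockdown library above every control and 4 had every knockdown library below. Over the 17974 genes that passed the filter, 14.5% lay fully above and 11.7% fully below, and edgeR's quasi-likelihood test with Benjamini-Hochberg adjustment called 23.2% (12.8% higher and 10.4% lower) at an adjusted p under 0.05. Since the genes were chosen on this comparison, nothing is read from their count. Bulk RNA cannot tell fewer cells of a type from less RNA per cell. Among markers, 6 of 11 myeloid genes that passed the filter were called lower (LYZ by 0.71, AZU1 by 0.47, S100A9 by 0.46 and CST3 by 0.17 on the log2 scale). The other myeloid genes were not called, with ELANE at 0.05, MPO at 0.32, FCER1G at -0.01, S100A8 at -0.15 and CD14 at -0.82. Also called lower were CD22 by 0.53 and CD79A by 0.33 of 5 B-cell markers, and CD4 by 0.19 of 4 T-cell markers. The summed myeloid level was 3420 to 3580 CPM in the controls and 2980 to 3110 CPM with the QKI shRNA, and that of B-cell markers 22.9 to 23.6 and 20.7 to 21.2 CPM. Summed NK-cell markers were 143 to 165 and 137 to 168 CPM, nearly all NKG7, with NCR1, KLRC1, KLRD1 and KLRK1 at 3 counts or fewer in every library. edgeR called 0 of 2 NK-cell and 0 of 2 fibroblast or epithelial markers, with 1 and 0 at an unadjusted p under 0.05. The part of these markers in the values of CD48 and CD84 was not tested.

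The signalling partners of the family were tested, since the rule that chose the family did not name them. Their list was still drawn up with earlier results of these data known, so it may not be independent of this comparison. Of 26 listed adaptors, kinases and phosphatases, 24 passed the filter, 5 rose and 2 fell, beside 12.8% of all genes called higher and 10.4% lower (23.2% in all), so the share called was near the background. They had a median log2 fold change of 0.03 against -0.01 over all genes. BCL10, an adaptor on the way to NF-κB, rose by 0.26 (SE 0.04, adjusted p = 0.00102 by edgeR), and the adaptor SH3BP2 rose by 0.22 (SE 0.04, adjusted p = 0.00142). UVRAG, which works with the lipid kinase PIK3C3 and beclin in membrane traffic, rose by 0.20 (SE 0.04, adjusted p = 0.00638), whereas PIK3C3 fell by 0.23 (SE 0.04, adjusted p = 0.000915). PTPN6 and CSK, which restrain signalling, rose by 0.18 and 0.17.

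The kinases that carry SAP signals were unequal in these cells. FYN stood at 21.7 ± 1.32 CPM with the control and 19.7 ± 0.954 CPM with the QKI shRNA (SD, n = 4 each). LCK, the main kinase of its kind in T cells, had 0 counts in all over the 4 controls and 1 over the QKI shRNA libraries, against 356 ± 71.1 CPM (SD, n = 4) in untreated HPB-ALL. SH2D1B, the SAP-like adaptor of NK cells, had 1 and 8 counts in all. CD2, a related adhesion receptor that binds CD58, was at 0.366 ± 0.0695 and 0.367 ± 0.0449 CPM (SD, n = 4 each), and edgeR called 0 of the 5 genes on the list of CD2 and its partners, of which 1 (PSTPIP1, chosen for naming after its value was seen) had an unadjusted p under 0.05. Of the other family members only SLAMF8 was measured, with a value of -0.23 on the log2 scale (SE 0.1, adjusted p = 0.129 by edgeR).

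Among the 40 other protein-coding genes within 500 kb of the cluster, 26 passed the filter and 5 were called, all of them higher, beside 23.2% of all genes called and 12.8% called higher, so this share too was near the background. ITLN1, which codes for a lectin and starts 173.3 kb from the start of CD48, rose by 0.99 (SE 0.06, adjusted p = 1.67e-06 by edgeR), from 3.77 ± 0.109 to 7.52 ± 0.486 CPM (SD, n = 4 each). TOMM40L, ARHGAP30 and NIT1 rose by 0.39, 0.21 and 0.31, with adjusted p of 0.000433, 0.0015 and 0.00407. USP21 rose by 0.17 (adjusted p = 0.0162). The median over the 26 genes was -0.03, against -0.01 over all genes, so the neighbours as a set lay near the centre of all genes.

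**Figure D3:**
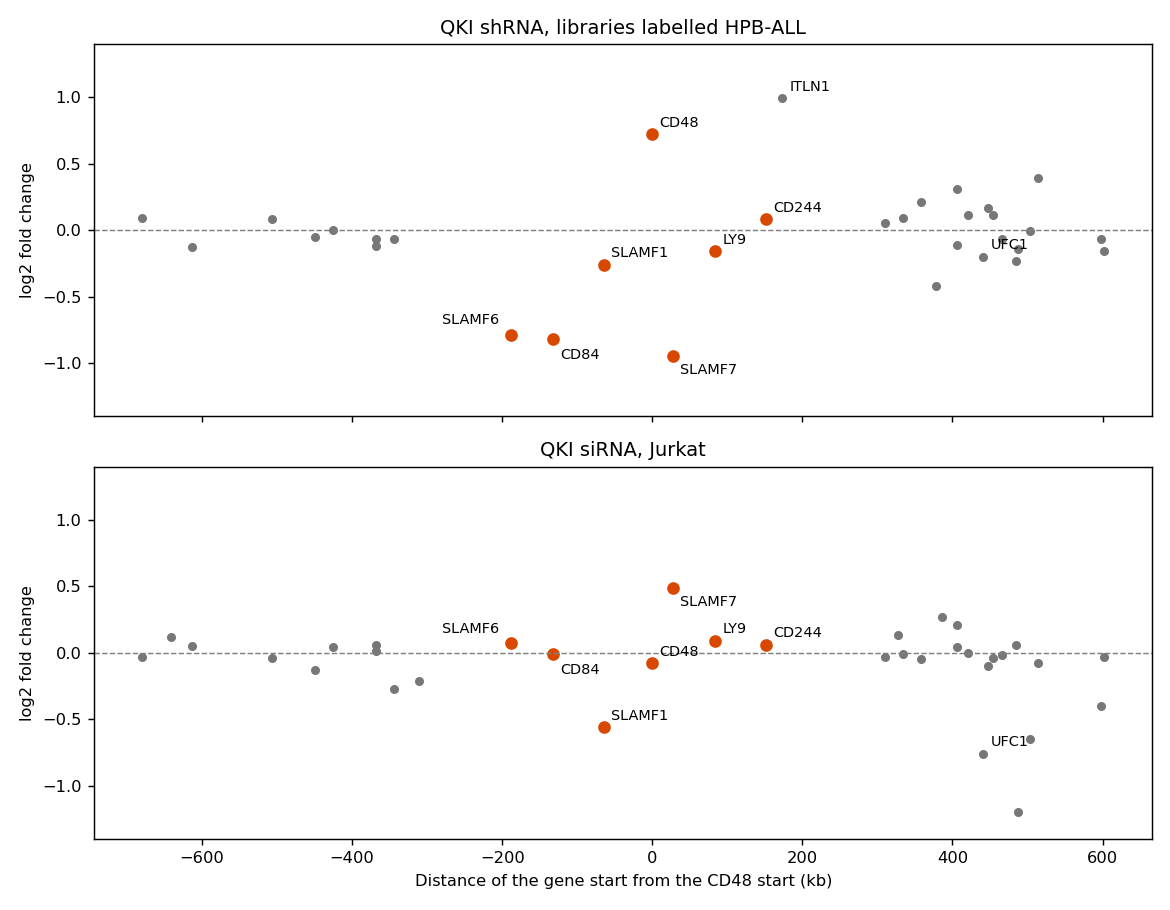
Log2 fold change (vertical axis) of the receptor genes (orange, named) and other protein-coding genes that passed the filter (grey) against the distance of the gene's start from the start of CD48 in kb, in the QKI shRNA comparison (upper) and in Jurkat (lower). CD48 at 0.72 sits between SLAMF1 at -0.26 and SLAMF7 at -0.95 in the upper panel, with ITLN1 at 0.99 to its right, and lies at -0.08 in the lower panel.

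Jurkat gave a comparison that did not choose the genes. All 8 passed the filter and none was called: the adjusted p by edgeR was 1 for each, also by DESeq2, and 0 of 8 had an unadjusted p under 0.05. The SE of the log2 fold changes ran from 0.13 to 0.85, and a p that missed the threshold here does not show that a gene kept its level. The background was as sparse, since edgeR called 1 of 21296 genes (0.0047%), and that gene was QKI itself (adjusted p = 0.000129). In all, 186 genes (0.873%) had an unadjusted p under 0.05. Libraries of the same number varied together across the 2 groups, and with that number as a block 9 genes were called (0.0423%), 1 higher (0.0047%) and 8 lower (0.0376%), and 1416 (6.65%) had an unadjusted p under 0.05. None of the 8 members was among either set, and their adjusted p ran from 0.802 to 0.977. No member had all QKI siRNA libraries above or below all controls, as 0.39% and 0.676% of genes did.

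CD48 stood at 26.8, 22.9, 32 and 29.2 CPM in control libraries 1 to 4 and at 25.9, 27.9, 27.1 and 23.9 CPM with the QKI siRNA. The groups overlapped, and the log2 fold change was -0.08 (SE 0.13), or -0.07 (SE 0.09, adjusted p = 0.887) with the block. It was lower in 3 of 4 pairs and 0.29 higher in the second.

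CD84 stood at 41.9, 21.9, 45.6 and 50.4 CPM in the controls and at 45.6, 17.6, 53.2 and 42 CPM with the QKI siRNA. Library 2 was the lowest of both groups, and the groups overlapped. The log2 fold change was -0.01 (SE 0.33), or -0.05 (SE 0.09, adjusted p = 0.925) with the block, and the pairs were 0.12, -0.31, 0.22 and -0.26. Beside these, the values of CD48 and CD84 in the shRNA libraries were 0.72 and -0.82. The difference between the knockdowns was not tested, because one of them chose the genes.

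SH2D1A, the most abundant of the 8 in Jurkat, stood at 473, 400, 546 and 471 CPM in the controls and at 487, 435, 565 and 525 CPM with the QKI siRNA. Every pair was slightly higher with the QKI siRNA, by 0.04 to 0.15 on the log2 scale, but the groups overlapped and the fit with the block gave 0.09 (SE 0.06, adjusted p = 0.802). SLAMF6 and LY9 were also higher in 4 of 4 pairs, by 0.02 to 0.09 and by 0.02 to 0.16, with an adjusted p of 0.858 and 0.814 in the block fit. The share of all genes alike in 4 of 4 pairs was not counted, so nothing is read from these pair counts. SLAMF6 was at 40.7 to 69.4 CPM in controls and 41.2 to 74 CPM with the QKI siRNA, and LY9 at 24.3 to 34.6 and 27.1 to 38 CPM.

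The rest were low. CD244 stood at 0.908, 0.847, 3.09 and 2.41 CPM in control libraries 1 to 4 and at 0.975, 0.721, 2.92 and 2.92 CPM with the QKI siRNA, so that libraries 1 and 2 were low in both groups. SLAMF1 and SLAMF7 were under 1 CPM in every Jurkat library. Their log2 fold changes of -0.56 (SE 0.67) and 0.49 (SE 0.85) had SE larger than the values themselves. Marker sums moved little between the Jurkat groups: the 12 T-cell markers summed to 1120 to 1410 CPM in controls and 1030 to 1350 CPM with the QKI siRNA.

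**Figure D4:**
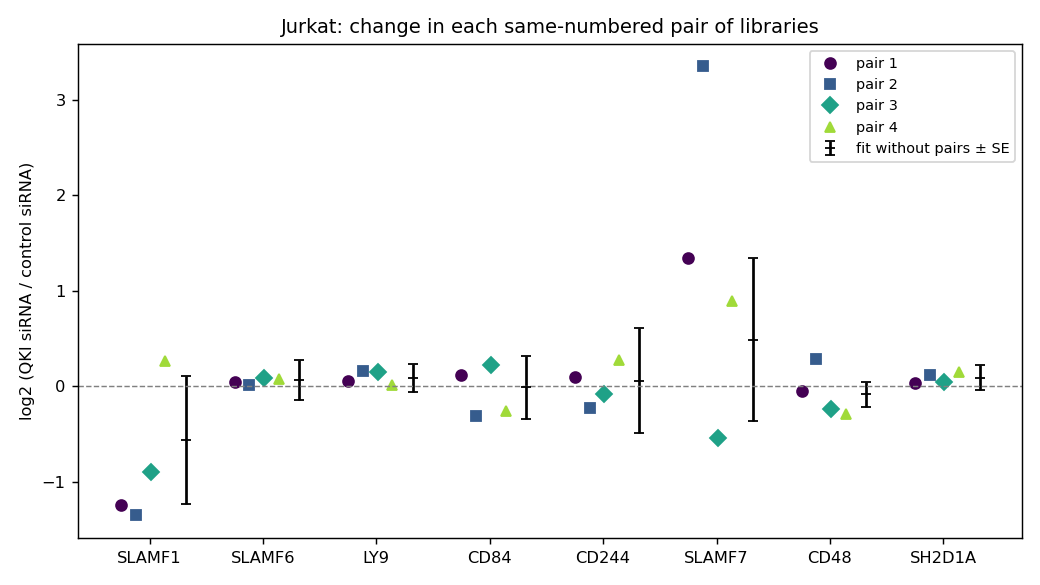
Log2 ratio of QKI siRNA to control siRNA (vertical axis) in each of the 4 same-numbered Jurkat pairs (symbols) for the 8 genes, with the estimate of the fit without pairs and its SE (black bars). SLAMF6, LY9 and SH2D1A lie just above 0 in all 4 pairs, CD48 and CD84 lie on both sides of 0, and SLAMF7 reaches 3.35 in the second pair at few counts.

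In Jurkat edgeR called, without the block, 0 of 25 adaptors and partners, 0 of 5 genes of CD2 and its partners, 0 of 28 genes of the locus and 0 of 12 T-cell markers. Of these, 0, 0, 1 (UFC1) and 1 (CD3G) had an unadjusted p under 0.05. With the block, CD3G, which belongs to the T-cell receptor complex, fell by 0.53 (adjusted p = 0.00761 by edgeR), and UFC1, 440.9 kb from the start of CD48, fell by 0.80 (adjusted p = 0.00177). UFC1 is the conjugating enzyme of a ubiquitin-like modifier.

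The untreated lines showed how far the family varies without intervention. The F test over the 6 lines by edgeR called 8 of 8 members, beside 98% of all 20348 genes tested, so the call itself sets them apart from nothing. Neighbours in the order of levels were compared within the same fit, where most genes were called between any pair of lines. With KARPAS-45 the share called was 74.2% against LOUCY, 76.2% against HPB-ALL, 72.2% against TALL-1 and 74.3% against DND-41 and against ALL-SIL. With LOUCY it was 66.8% against HPB-ALL, 66.7% against TALL-1, 65.9% against DND-41 and 67.1% against ALL-SIL. With HPB-ALL it was 62.2% against TALL-1, 55.8% against DND-41 and 62.5% against ALL-SIL, and among the others it was 53.6% for TALL-1 against DND-41, 53.9% for TALL-1 against ALL-SIL and 51.9% for DND-41 against ALL-SIL. Of 40 such neighbour contrasts 22 were called, and 18 of these kept call and sign with RLE size factors, no filter, the replicate block and each left-out library or set of libraries. In the lines the block was fitted on numbered libraries only, without the 2 LOUCY libraries headed with the number 1. Its values therefore mix the block with the loss of these 2 libraries. DESeq2 was not run for these contrasts.

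CD48 was present in all 6 lines. Its libraries ran from 87.9 to 107 CPM in TALL-1, 65.2 to 90.4 in DND-41, 66.8 to 90.8 in HPB-ALL, 18 to 40.7 in LOUCY, 15.4 to 25.3 in ALL-SIL and 2.22 to 2.73 in KARPAS-45. Thus 3 lines were high with overlapping libraries, 2 were intermediate and 1 was low. TALL-1, DND-41 and HPB-ALL were not separated from their neighbours (adjusted p = 0.354 and 0.874 by edgeR), nor was LOUCY from ALL-SIL (log2 difference 0.24, SE 0.2, adjusted p = 0.298). The latter contrast was called with the replicate number as a block (0.51, adjusted p = 0.0391) and was -0.13 without LOUCY replicate 4. HPB-ALL was above LOUCY by 1.69 (SE 0.2, adjusted p = 8.88e-08), and ALL-SIL above KARPAS-45 by 3.08 (SE 0.22, adjusted p = 5.86e-12).

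CD84 had another order. LOUCY led with 180, 168, 190 and 131 CPM, followed by TALL-1 with 22.7, 19.2, 20.2 and 11.2 CPM and ALL-SIL with 8.58, 11.1, 13.3 and 10.5 CPM. DND-41 (1.63 to 5.51 CPM), HPB-ALL (0.347 to 1.55 CPM) and KARPAS-45 (0.391 ± 0.044 CPM, SD, n = 4) came below. LOUCY, whose QKI count is 0, was thus 427-fold above KARPAS-45, where QKI stood at 6.71 ± 0.776 CPM. All neighbours differed, from 3.19 (SE 0.3, adjusted p = 8.6e-10 by edgeR) between LOUCY and TALL-1 to 0.76 (SE 0.28, adjusted p = 0.0246) between TALL-1 and ALL-SIL. The latter call was lost without TALL-1 replicate 1 (adjusted p = 0.0663) or ALL-SIL replicate 1 (adjusted p = 0.0638).

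CD244, the partner of CD48, was on in 4 lines and nearly off in 2. Means were 152 ± 34.4 CPM in LOUCY, 110 ± 5.7 in HPB-ALL, 27.9 ± 4.5 in DND-41 and 18.5 ± 6.66 in ALL-SIL (SD, n = 4 each), and 0.311 ± 0.181 in TALL-1 and 0.0483 ± 0.0199 in KARPAS-45. TALL-1, the line with the highest mean of CD48, was therefore 5.92 below ALL-SIL in CD244 on the log2 scale (SE 0.3, adjusted p = 6.89e-15 by edgeR). LOUCY and HPB-ALL did not overlap in CD244 but missed the threshold (0.46, SE 0.21, adjusted p = 0.0596 by edgeR). They passed it with the replicate number as a block (adjusted p = 0.0296), with RLE size factors (adjusted p = 0.0421) and with no filter (adjusted p = 0.0357). LOUCY replicate 4 was the highest of its line, at 202 CPM against 125 to 146 in the others. Without it the difference was 0.28 (SE 0.21, adjusted p = 0.248), and without replicate 4 of every line 0.31 (adjusted p = 0.0776). DND-41 was above ALL-SIL by 0.59 (SE 0.21, adjusted p = 0.0235), a call lost without DND-41 replicate 2, ALL-SIL replicate 3 or ALL-SIL replicate 4 (adjusted p = 0.0679, 0.077 and 0.0867).

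SLAMF1 was above 1 CPM in 2 of the 6 lines and SLAMF6 in 1. SLAMF1 ran from 73.7 to 90.6 CPM in HPB-ALL and from 3.89 to 6.53 CPM in DND-41, a log2 difference of 3.93 (SE 0.25, adjusted p = 8.32e-13 by edgeR), and was under 1 CPM in every library of the other 4. The libraries labelled HPB-ALL, at 1.58 ± 0.111 CPM (SD, n = 4) with the control shRNA, were far from the untreated line of that name at 83.2 ± 8.08 CPM, although these levels come from separate normalizations. SLAMF6 ran from 14.7 to 16.7 CPM in LOUCY and was under 1 CPM in every library of the other 5 lines. LOUCY exceeded the next line, ALL-SIL, by 5.08 (SE 0.29, adjusted p = 6.46e-14). TALL-1 and LOUCY differed in SLAMF1 by 0.98 (adjusted p = 0.0177 by edgeR). This call was lost with the block, which left out both LOUCY libraries headed with the number 1 (adjusted p = 0.271). It was also lost without either of these 2 libraries or without TALL-1 replicate 2 (adjusted p = 0.0521, 0.0538 and 0.0515).

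LY9 was above 1 CPM in 3 lines. DND-41 stood at 10.1, 17.2, 16.9 and 18.8 CPM, LOUCY at 3.27, 3.36, 3.37 and 13 CPM and HPB-ALL at 1.82, 2.11, 1.97 and 3.25 CPM. Replicate 4 of LOUCY was far above the other 3, and without it LOUCY and HPB-ALL differed by 0.54 (adjusted p = 0.0882 by edgeR) in place of 1.33 (SE 0.39, adjusted p = 0.0048). KARPAS-45 had 0 counts in all 4 libraries, at least 343-fold lower than DND-41 against a floor of 3 counts per library (0.046 CPM). SLAMF7 was under 1 CPM in every library of the lines, highest in HPB-ALL at 0.323 ± 0.14 CPM (SD, n = 4), and its only called neighbours were ALL-SIL and LOUCY (2.45, SE 0.5, adjusted p = 0.000137).

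SH2D1A varied least. Means were 193 ± 8.16 CPM in KARPAS-45, 193 ± 68.5 in TALL-1, 148 ± 19.6 in HPB-ALL, 131 ± 28.7 in DND-41, 125 ± 19.1 in LOUCY and 89 ± 22.3 in ALL-SIL (SD, n = 4 each). The highest mean was 2.17-fold above the lowest, against 39.3-fold for CD48 and 427-fold for CD84. CD244 spanned more still, but its lowest line, KARPAS-45, had only 2 to 5 counts per library, so no fold is given. No neighbours in the order were called by edgeR (adjusted p = 0.0543 to 1), while the F test over all lines was (adjusted p = 0.000391). The closest to the threshold, LOUCY above ALL-SIL by 0.49 (SE 0.22), was called with RLE size factors (adjusted p = 0.0303), with no filter (adjusted p = 0.0293) and with the block (adjusted p = 0.0317). TALL-1 stood at 226, 240, 214 and 91.5 CPM, and without replicate 4 it was 0.62 above HPB-ALL (adjusted p = 0.0042). KARPAS-45, which had the lowest mean of every receptor except SLAMF6, thus shared the highest mean of the adaptor, and its receptors summed to 0.804 FPKM against 14.2 to 85 in the other lines.

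**Figure D5:**
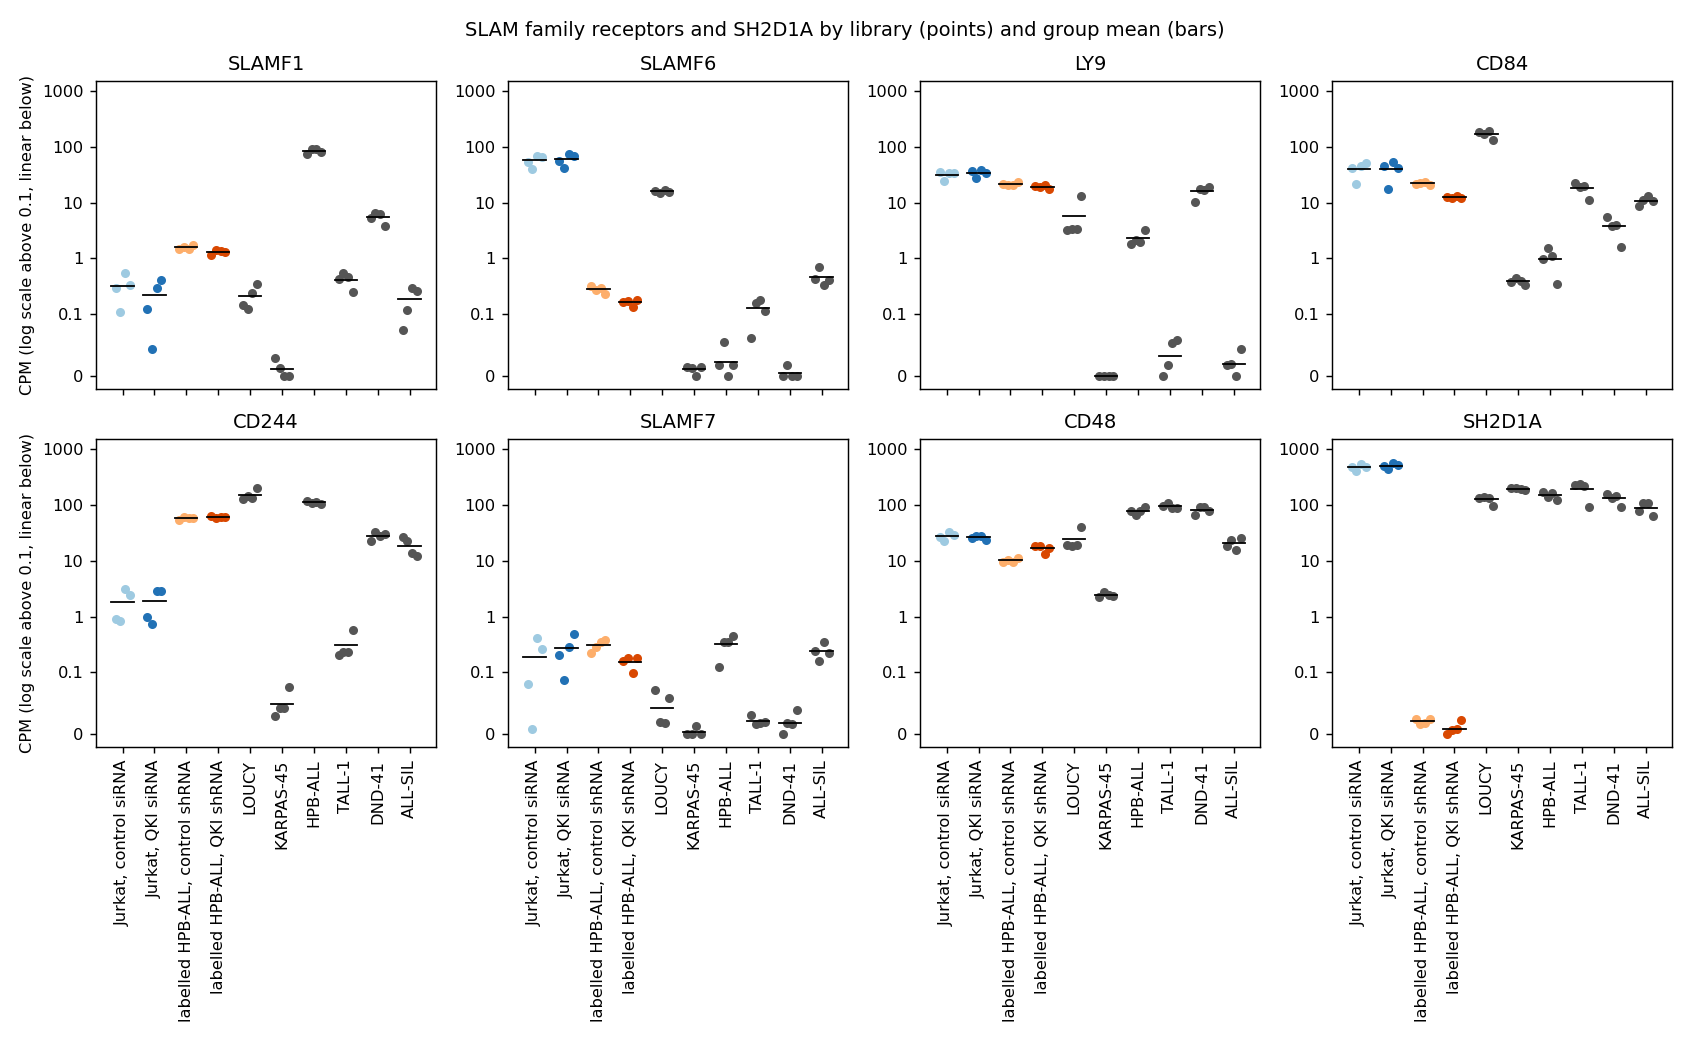
CPM of the 8 genes in each of the 40 libraries (points) with the group mean (bars), on an axis that is logarithmic above 0.1 and linear below. SH2D1A lies at 63.5 CPM or more in every library but those labelled HPB-ALL, SLAMF6 stands out in Jurkat and LOUCY, SLAMF1 in HPB-ALL, and CD84 in LOUCY.

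Partners of the family also differed among the lines, at the background rate: 25 of 25 adaptors and partners and 5 of 5 genes of CD2 and its partners were called, beside 98% of all genes, and 30 of 31 genes of the surrounding locus. The smallest p among adaptors belonged to the kinases LYN and FGR, PLCG2 and DOK2. FYN ran from 67 ± 3.86 CPM in KARPAS-45 to 344 ± 93.6 in ALL-SIL, and LCK from 170 ± 27.5 in DND-41 to 805 ± 51.1 in KARPAS-45 (SD, n = 4 each). SH2D1B had 5 counts in all in LOUCY and 0 in the other 5 lines.

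Over the 24 libraries of the 6 lines, the members' log2 CPM varied together in some pairs and against each other in others. Pearson's r was 0.87 between SLAMF6 and CD84, 0.76 between LY9 and CD244, 0.72 between SLAMF1 and CD48 and 0.47 between CD244 and CD48. Other pairs went the opposite way, with r of -0.54 between CD244 and SH2D1A, -0.48 between SLAMF7 and SH2D1A and -0.36 between SLAMF1 and SLAMF6. With QKI, r was -0.78 for SLAMF6, -0.53 for CD84, 0.40 for CD48 and 0.41 for SLAMF1. It was weaker for SLAMF7 (0.31), LY9 (-0.27), CD244 (-0.23) and SH2D1A (0). These points are 6 lines with 4 libraries each, which share their line and depth, so the coefficients describe these libraries only and carry no p. SLAMF1, SLAMF6, LY9 and SLAMF7 were at 3 counts or fewer in every library of KARPAS-45, and all but SLAMF1 in other lines too. Their coefficients, here and in the likenesses that follow, therefore rest partly on few counts.
Among genes with an ordinary symbol, those most like CD48 by the same r were ZNF844 (0.979), TSPY26P (0.978) and CD3E (0.969). For CD84 they were EPDR1 (0.954), TRERF1 (0.952) and GPA33 (0.948). For CD244 they were BIN2 (0.987), CD28 (0.986) and ATRN (0.981), for LY9 MROCKI (0.99), TRPS1 (0.977) and GAS1 (0.977), and for SLAMF6 EHD2 (0.976), TNNI2 (0.97) and ITGAX (0.97). For SLAMF1 they were CR2 (0.952), C4BPB (0.948) and RGMB (0.945), for SLAMF7 ZNF418 (0.95), SEMA7A (0.945) and GTSF1 (0.932), and for SH2D1A PTTG1 (0.906), PAK4 (0.866) and FAM72A (0.855).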

How the data were processed

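The authors deposited raw whole-number read counts for each gene of 40 libraries in 3 tables (Jurkat, the cells labelled HPB-ALL, and the 6 untreated lines). Per the submitters' processing notes the tools were Trimmomatic 0.39 and STAR 2.7.11b with GRCh38. How reads were counted, and with which annotation release and strand, is not given in the sources. Rows that name no gene, 13% to 15.1% of reads in the table labelled HPB-ALL, were left out. The Jurkat control columns, headed shNTC, were matched to the control siRNA, the one control group of Jurkat. For LOUCY, 2 columns both bear the number 1, so neither could be tied to a sample, and they were used as replicates without a number.

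Tests used edgeR 4.0.16 (R 4.3.3) on the counts (filterByExpr, TMM, quasi-likelihood F test, Benjamini-Hochberg adjustment over all genes, threshold 0.05), after a check on simulated counts. Each knockdown was fitted on its 8 libraries and the lines on 24, or with the replicate block on their numbered libraries only. CPM use the TMM factors, and FPKM divide them by the union exon length of GENCODE 29. Members, gene lists and marker lists were chosen with earlier results of these data known. All 8 members are named, with up to 4 called genes of smallest p from each list. For each member the 3 genes with the highest Pearson r over the lines are named, among filtered genes with an ordinary symbol. That ranking left out symbols beginning with ENSG or LINC, those of antisense or clone form, and any ending in P and a number. Names beyond this, such as PTPN6, CSK, USP21, FYN, LCK, SH2D1B and the markers, were picked with their values in view.

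Replicate numbers paired the Jurkat libraries: the deviations of the 4 same-numbered pairs from their group means correlated at 0.337 to 0.556, and for 7 of 8 libraries the best match was the one of the same number. The labels do not say what a number shares. Replicate pairs of a group differed by more than counting noise, with a chi-square of 12.7 to 348 per degree of freedom over 60 pairs. As alternatives, DESeq2 1.42.0, RLE size factors, no filter, the replicate block and leaving out each library were run. Leaving out LOUCY replicate 4, and replicate 4 of every line, was added after seeing the data.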

Additional observations from a re-analysis of the deposited data

Results flagged for a closer look

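In 68 groups of 4 libraries, the highest or lowest library stood apart from the other 3 in 5, by a gap above Dixon's critical value for 4 samples. Chance gives about 1 in 20 such groups. LOUCY replicate 4 is in 3 of the 5: LY9 stood at 13 CPM there against 3.27 to 3.37 in the others, CD48 at 40.7 CPM against 18 to 19.2, and SH2D1A at 96.8 CPM against 132 to 139. CD244 stood at 0.582 CPM in TALL-1 replicate 4 against 0.203 to 0.23. LY9 stood at 24.3 CPM in replicate 2 of the control siRNA in Jurkat against 33.2 to 34.6.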

How the results depend on the processing

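The count of called genes in Jurkat was 1 with edgeR, 2 with DESeq2 and 9 with the replicate block. In Jurkat, leaving out each library in turn gave log2 fold changes on both sides of 0 for SLAMF6 (-0.07 to 0.21), LY9 (-0.01 to 0.18), CD84 (-0.22 to 0.23) and CD244 (-0.24 to 0.45). In the lines the same was seen for SLAMF1 (-0.13 to 0.52) and CD48 (-0.13 to 0.36, with the sign changing without LOUCY replicate 4) between LOUCY and ALL-SIL. It was also seen for SLAMF7 between TALL-1 and DND-41 (-0.15 to 0.73), CD48 between DND-41 and HPB-ALL (-0.02 to 0.15) and SH2D1A between DND-41 and LOUCY (-0.01 to 0.24). SH2D1A between KARPAS-45 and TALL-1 was 0 with all libraries, so it had no sign to keep, and ran from -0.23 to 0.09. The cause was not tested. None of these contrasts had been called. Of the 40 contrasts between neighbouring lines, 14 others than that one changed call or sign under some alternative. DESeq2 was not run for them. SLAMF7 between DND-41 and KARPAS-45 was called without KARPAS-45 replicate 3 (adjusted p = 0.0294). LY9 between ALL-SIL and KARPAS-45 was called without LOUCY replicate 4 (adjusted p = 0.0276) or with the replicate block (adjusted p = 0.0416). CD244 between LOUCY and HPB-ALL was called without the first of the 2 LOUCY libraries headed with the number 1, TALL-1 replicate 4, or ALL-SIL replicate 1 or 4 (adjusted p = 0.03 to 0.0475). The same contrast was weaker without LOUCY replicate 4 (0.28, adjusted p = 0.248). SH2D1A between LOUCY and ALL-SIL was called without replicate 4 of LOUCY, HPB-ALL, TALL-1 or DND-41, or ALL-SIL replicate 2 or 3 (adjusted p = 0.0115 to 0.0498). The log2 fold changes of the 7 receptors in the libraries labelled HPB-ALL kept their sign under every alternative run, and the F test over the lines stayed called for 8 of 8 members. Depth limits the members at 3 counts or fewer in every library of a group, so contrasts on them rest on few counts, the calls of LY9 and SLAMF7 against KARPAS-45 above included. These were SH2D1A in the libraries labelled HPB-ALL, SLAMF1, SLAMF6, LY9 and SLAMF7 in KARPAS-45, SLAMF6 in HPB-ALL and DND-41, LY9 in TALL-1 and ALL-SIL, and SLAMF7 in TALL-1 and DND-41. In the libraries labelled HPB-ALL the replicate block gave 3063 called genes against 4175. There the 4 same-number correlations were -0.179 to 0.045 and 1 of 8 libraries correlated best with its own number, so the libraries share only a number. In the lines the 50 same-number correlations ran from -0.124 to 0.388. Not every pair was over 0.1, so these libraries too were treated as sharing only a number, although replicate 4 stood at one end for some members in most lines.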

Other observations

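In the untreated lines replicate 4 sat at one end of the group for several members. SH2D1A was lowest in replicate 4 in 6 of 6 lines and CD84 in 5 of 6, while LY9 was highest in replicate 4 in 5 of 6. For LY9 those 5 include TALL-1 and ALL-SIL, which had 3 counts or fewer in every library, and KARPAS-45 had 0 counts. The LY9 pattern thus rests on DND-41, LOUCY and HPB-ALL. CD48 was highest there in 3 of 6 lines and lowest in 0. This was seen in the data and then counted, and the labels do not say what a replicate number stands for. Without replicate 4 of every line the F test of SH2D1A by edgeR had an adjusted p of 1.24e-08, against 0.000391 with all libraries, and TALL-1 was above HPB-ALL by 0.58 on the log2 scale (adjusted p = 0.000144).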
